A study of Mus musculus with 6 samples.

Results

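The suppressors of cytokine signalling are 8 genes in the mouse, Socs1 to Socs7 and Cish, and all 8 were found by symbol among the 55483 features of each deposited table. They were examined in whole-oviduct RNA of pregnant mice at gestational day 3, in 3 libraries labelled Mettl3 f/f and 3 labelled Mettl3 d/d. The females were 6 to 8 weeks old when mated with fertile males, and the day of the vaginal plug was counted as day 1. By convention f/f stands for both alleles floxed and d/d for both alleles deleted. The sources used here do not give the deleted exons, the Cre driver, the cells it acts in, the strain or any pooling of animals.

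Some SOCS proteins are feedback brakes. A cytokine that binds its receptor activates JAK kinases and, through them, STAT transcription factors. STATs then switch on some of the SOCS genes, whose products block the receptor or the kinase. Each SOCS protein carries an SH2 domain, which docks on phosphorylated tyrosines, and a SOCS box, which recruits elongins and a cullin so that the bound protein is tagged with ubiquitin. Mettl3 encodes the enzyme that places N6-methyladenosine (m6A) on RNA. In T cells the transcripts of Socs1, Socs3 and Cish are known as short-lived RNAs that carry m6A and that last longer when Mettl3 is missing.

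STAT proteins of most types bind the palindrome TTCNNNGAA, and interferon regulatory factors bind paired copies of GAAA, searched here as GAAA, any 2 bases and GAAA again. RefSeq promoter windows (GRCm38.p6, 250 bases before to 50 after the transcript start, 300 in all) were at hand for 4 members, Cish, Socs1, Socs3 and Socs4, and not for Socs2, Socs5, Socs6 and Socs7. The 3 windows that held either motif on either strand are printed because they hold the letters that STATs or interferon factors recognise, with the matches in capitals. They are Cish (chr9:107296409-107296708, plus strand), Socs1 (chr16:10785487-10785786, minus strand) and Socs3 (chr11:117969317-117969616, minus strand), each written 5′ to 3′ along its gene.

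Cish: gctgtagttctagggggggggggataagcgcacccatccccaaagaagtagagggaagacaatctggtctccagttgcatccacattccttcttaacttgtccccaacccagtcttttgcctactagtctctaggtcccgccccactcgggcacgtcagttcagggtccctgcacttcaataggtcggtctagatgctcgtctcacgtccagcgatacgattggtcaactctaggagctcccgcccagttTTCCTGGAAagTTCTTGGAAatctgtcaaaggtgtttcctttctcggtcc
Socs1: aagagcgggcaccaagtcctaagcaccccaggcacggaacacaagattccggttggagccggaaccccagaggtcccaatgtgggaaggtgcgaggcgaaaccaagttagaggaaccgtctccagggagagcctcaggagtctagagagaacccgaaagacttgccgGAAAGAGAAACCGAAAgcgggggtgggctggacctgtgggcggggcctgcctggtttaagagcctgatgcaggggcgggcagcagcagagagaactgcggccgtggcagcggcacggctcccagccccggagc
Socs3: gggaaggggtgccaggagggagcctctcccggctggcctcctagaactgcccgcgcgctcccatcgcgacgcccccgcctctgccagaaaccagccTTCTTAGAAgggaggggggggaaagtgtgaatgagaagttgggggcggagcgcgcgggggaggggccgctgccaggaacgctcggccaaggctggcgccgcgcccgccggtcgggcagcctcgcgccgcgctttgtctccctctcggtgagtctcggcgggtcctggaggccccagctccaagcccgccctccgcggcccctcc

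Counted from 1 at the 5′ end of each window, where base 251 is the RefSeq transcript start, TTCNNNGAA began at bases 251 and 262 in Cish and at base 97 in Socs3. It was not in the Socs1 or Socs4 window. The GAAA pair began at bases 168 and 174 in Socs1, where both matches overlap each other, and was not in the other 3 windows. Of 32851 promoter windows of that length, 8.3% held TTCNNNGAA and 3.44% held the GAAA pair. For Cish and Socs3, GENCODE places the first base of the gene upstream of the whole RefSeq window, so both windows and their matches lie inside the GENCODE gene. A match is a string of letters and not a measured binding site.

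The most frequent core of m6A sites is GGACT, with the methylated A in the middle, and such sites cluster near stop codons. In the longest coding transcript of each member (GENCODE M21), Socs7 held 9 GGACT in 7015 nt, 5 of them after the stop codon. Cish held 4 in 2850 nt, Socs5 and Socs6 4 each in 4648 and 6036 nt, Socs2 and Socs3 3 each in 2222 and 2552 nt, Socs4 2 in 6877 nt and Socs1 1 in 2908 nt. Per kilobase this was 1.40 for Cish, 1.35 for Socs2, 1.28 for Socs7, 1.18 for Socs3, 0.861 for Socs5, 0.663 for Socs6, 0.344 for Socs1 and 0.291 for Socs4. The median of 13467 tested coding genes was 1.06 per kilobase, with the 10th and 90th percentiles at 0.316 and 2.10. By density Socs4 lay below the 10th percentile and the other 7 members between both percentiles, while by plain number the 9 of Socs7 stood at percentile 92.7. The GGACT nearest the stop codon, with 10 bases on either side, is shown for the member with the largest fall (Socs7), the one with the largest rise in the fitted values (Cish) and 2 others, with the motif in capitals.

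Socs7: cagggtcccaGGACTgccaccaact
Cish: gtccccagctGGACTtggggttctg
Socs2: tacgatctggGGACTgcctttacca
Socs3: acggccacctGGACTcctatgagaa

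In Cish this motif began 64 bases after the last base of the stop codon. In Socs7, Socs2 and Socs3 it lay in the coding sequence, 257, 59 and 75 bases before the last base of the stop codon. The nearest GGACT lay farther off in 3 members not shown. It began 378 bases before that base in Socs5, 1092 before it in Socs4 and 751 after it in Socs1. The tables hold no m6A measurement, so whether any of these motifs is methylated in the oviduct was not tested. ATTTA, the core of the AU-rich elements that shorten the life of cytokine and feedback mRNAs, occurred 17 times after the stop codon in Socs4, 10 times in Socs6, 5 in Socs7, 4 in Socs3 and Socs5, 3 in Cish, 2 in Socs2 and 0 in Socs1, beside a median of 1 over the tested coding genes. Per kilobase after the stop codon this was 3.28 for Socs4, 2.76 for Cish, 2.71 for Socs3, 2.49 for Socs6, 1.72 for Socs2, 1.54 for Socs5, 0.964 for Socs7 and 0 for Socs1, beside a median of 1.34, so Socs7 was above the median by number and below it by density.

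Values are FPKM, that is fragments for each kilobase of transcript after scaling by sequencing depth, so levels may be compared between genes. Comparison between libraries is less strict, since scaling by depth does not correct for a differing make-up. Summed FPKM were 588802 to 648396 in f/f and 629751 to 751618 in d/d. The 10 highest features took 10.8% to 14.6% of the sum in f/f and 17.0% to 22.8% in d/d. The unit was read from the form of the values and from the tool named by the submitters. Low values fell on steps that implied between 16.62 and 17.76 fragments (in units of 1e6) per library. At that depth the values of the family stand for roughly 140 fragments (Cish in f/f library 1) to roughly 2710 (Socs7 in f/f library 2). All 8 members passed the filter of a mean of at least 1 FPKM. Log2 changes are d/d minus f/f on log2(FPKM + 1) from limma fitted to 15438 features, adjusted p-values are Benjamini-Hochberg over all of them, and under 0.05 is called. The labels do not say whether replicates are separate animals, and p-values then measure only how far these libraries differ, which may be technical. Library 1 of a group is its replicate 1, and so on, and values listed for a group follow that order.

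Mettl3 itself, the targeted gene, read 11.8, 12.1 and 13.2 FPKM across f/f and 19.8, 20.3 and 24.5 across d/d. The transcript was thus higher in every library labelled d/d (log2 change 0.75, SE 0.12, limma adjusted p = 0.0145; 0.0685 without f/f library 2). One value per gene cannot show a missing exon, so the genotype labels were not verified by it and every direction here rests on them.

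Oviduct identity was clear in every library, with Ovgp1, the oviductal glycoprotein, between 2651 and 5690 FPKM. f/f library 1 stood apart: it had the lowest summed level of 4 smooth muscle markers (1333 FPKM, against 3168 and 3209 in the other f/f libraries and 1859 to 3004 in d/d) and the highest of 6 multiciliated cell markers (218.5, against 64.4 and 105 in f/f and 24.2 to 119.8 in d/d). Hoxa10, which marks uterus rather than upper oviduct, read 3.48 FPKM in f/f library 1, 4.24 in d/d library 1 and 9.47 to 26.5 in the other 4 libraries. Mitochondrial transcripts took 3.61% to 5.70% of the summed FPKM in f/f and 6.5% to 9.70% in d/d, and their part in the results was not tested. In a bulk tissue, fewer cells of a type and less RNA per cell cannot be told apart.

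The family did not move as a block. Socs7 was lower in d/d and passed the test, and the other 7 members had higher fitted levels in d/d, none of which passed. Of the 8 members 1 was called, 0 higher and 1 lower, where 11.0% of all features were called (6.04% higher and 4.97% lower), so the share of the family that was called is near the background. At an unadjusted limma p under 0.05 there were 5 higher (Socs2, Socs4, Socs5, Socs6 and Cish) and 1 lower (Socs7), against 29.6% of all features in either direction. The groups were fully separated in 5 of 8 members (35.6% of all features), with Socs4, Socs5, Socs6 and Cish higher (18.1% of all features) and Socs7 lower (17.4% of all features). The median log2 change of the 8 was 0.33, and that of all features -0.0105. The direction was positive in 7 of 8 members and in 48.8% of all features.

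**Figure D1:**
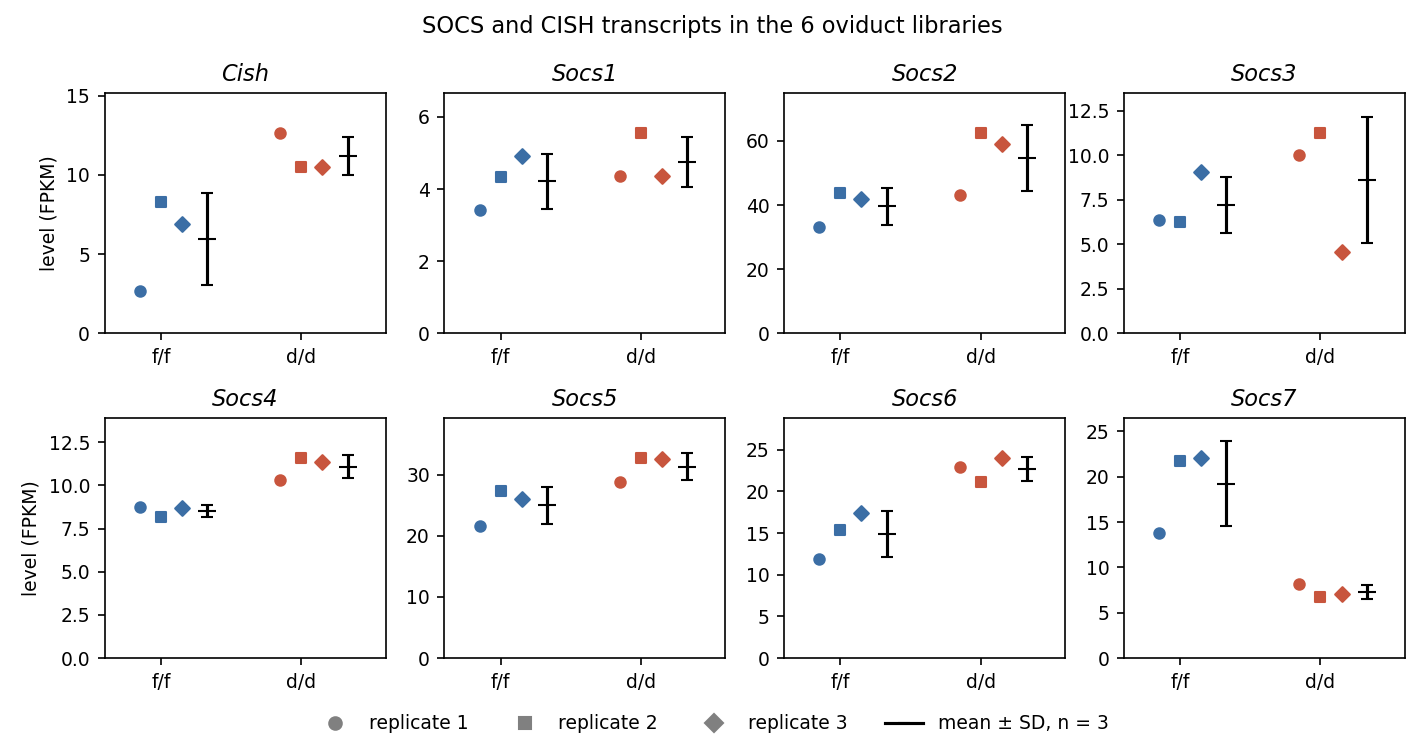
Level of each family member in FPKM (vertical axis, from 0) in the 3 f/f libraries (blue) and the 3 d/d libraries (red), with marker shapes for replicates and the mean ± SD (n = 3) in black. Socs7 lies at 8.19 FPKM or less in all d/d libraries and at 13.8 or more in all f/f libraries, while Socs4, Socs5, Socs6 and Cish are higher in d/d with no overlap and Socs1, Socs2 and Socs3 overlap.

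Cish, the cytokine-inducible SH2 protein that STAT5 switches on and that restrains receptors using STAT5, had the largest rise of the family in fitted value. Cish read 2.68, 8.30 and 6.88 FPKM across f/f and 12.6, 10.5 and 10.5 across d/d. The d/d libraries were close together and all above the f/f libraries, among which replicate 1 was far below the other 2. The means were 5.96 ± 2.92 and 11.2 ± 1.22 FPKM (SD, n = 3 each), a ratio of 1.88. The log2 change was 0.91 (SE 0.34, 95% interval from 0.11 to 1.72) and did not pass (limma adjusted p = 0.132). Without f/f library 1 the ratio was 1.48 and the log2 change 0.51, and without replicate 1 of both groups they were 1.38 and 0.43. The exact two-sided permutation p was 0.1, the smallest that 3 libraries against 3 allow, as it was for Socs4, Socs5, Socs6 and Socs7. Cish (ENSMUSG00000032578) lies on chromosome 9, 107296026 to 107302784 (plus strand, GRCm38), where the annotated Gm17040 and Gm17041 overlap it on the other strand at no more than 0.287 and 0.147 FPKM in any library.

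Socs1, which plugs the catalytic site of JAK kinases and is the main brake on interferon gamma, had the lowest mean of the family in both groups. Socs1 read 3.41, 4.33 and 4.91 FPKM across f/f and 4.36, 5.54 and 4.36 across d/d. The groups overlapped. The log2 change was 0.15 (95% interval from -0.27 to 0.56, limma adjusted p = 0.618). Socs1 (ENSMUSG00000038037) lies on chromosome 16, 10782240 to 10785536 (minus strand, GRCm38).

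Socs2, a brake on growth hormone receptor signalling, was the most abundant member in every library. Socs2 read 33.1, 43.9 and 42.0 FPKM across f/f and 43.1, 62.3 and 58.9 across d/d. d/d library 1 lay within the f/f range and the other d/d libraries above it. The means were 39.7 ± 5.73 and 54.8 ± 10.3 FPKM (SD, n = 3 each; log2 change 0.45 with a 95% interval of 0.03 to 0.87, limma adjusted p = 0.148). Socs2 (ENSMUSG00000020027) lies on chromosome 10, 95385362 to 95417180 (minus strand, GRCm38).

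Socs3, the brake on receptors that share the gp130 chain, had the widest d/d spread of the family relative to its mean. Socs3 read 6.38, 6.27 and 9.04 FPKM across f/f and 9.999, 11.2 and 4.60 across d/d. d/d library 3 was the lowest of all 6 libraries and d/d library 2 the highest. The log2 change of 0.16 had a 95% interval from -0.59 to 0.91 (limma adjusted p = 0.771) and turned to -0.05 without d/d library 2 or without replicate 1 of both groups. Socs3 (ENSMUSG00000053113) lies on chromosome 11, 117966079 to 117970047 (minus strand, GRCm38).

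Socs4 and Socs5, close relatives known for acting on the epidermal growth factor receptor, were higher in every d/d library by a small amount. Socs4 read 8.76, 8.15 and 8.68 FPKM across f/f and 10.3, 11.6 and 11.3 across d/d. Its groups were tight, with means of 8.53 ± 0.335 and 11.1 ± 0.670 FPKM (SD, n = 3 each; ratio 1.30, log2 change 0.34, SE 0.11, limma adjusted p = 0.0931). Socs5 read 21.5, 27.4 and 26.0 FPKM across f/f and 28.7, 32.7 and 32.5 across d/d. The highest f/f and lowest d/d value of Socs5 nearly met (ratio of means 1.26, log2 change 0.32, SE 0.12, limma adjusted p = 0.141). Socs4 (ENSMUSG00000048379) lies on chromosome 14, 47276931 to 47296102 (plus strand, GRCm38), and Socs5 (ENSMUSG00000037104) lies on chromosome 17, 87107679 to 87137839 (plus strand, GRCm38).

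Socs6, which binds receptor tyrosine kinases such as KIT, came closest to the threshold among the higher members. Socs6 read 11.9, 15.4 and 17.4 FPKM across f/f and 23.0, 21.2 and 24.0 across d/d. All d/d libraries were above all f/f libraries. The means were 14.9 ± 2.75 and 22.7 ± 1.42 FPKM (SD, n = 3 each), a ratio of 1.52. The log2 change was 0.59 (SE 0.15, 95% interval from 0.23 to 0.94) with a limma adjusted p of 0.0526. Of 14 alternatives Socs6 passed in 1, when values were rescaled to protein-coding nuclear genes (limma adjusted p = 0.0384). With 1 library left out at a time it missed the threshold in every fit (limma adjusted p from 0.0611 to 0.141). Its identifier is ENSMUSG00000056153, and annotated processed pseudogenes lie within its span.

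Socs7, which binds the adaptor NCK and insulin receptor substrates, was the member that fell. Socs7 read 13.8, 21.8 and 22.1 FPKM across f/f and 8.19, 6.72 and 7.04 across d/d. Every d/d library was below every f/f library, and f/f library 1 was the lowest of its group. The means were 19.2 ± 4.68 and 7.31 ± 0.772 FPKM (SD, n = 3 each), 2.63-fold lower in d/d. The log2 change was -1.26 (SE 0.20, 95% interval from -1.72 to -0.79, limma adjusted p = 0.0140), beyond the 5th percentile of all features (-0.91). With 1 library left out at a time, the call was kept without f/f library 1 (limma adjusted p = 0.00403) or d/d library 1 (0.0341). Among these fits it missed the threshold without f/f library 2 (0.0601), f/f library 3 (0.0531), d/d library 2 (0.0527) or d/d library 3 (0.0519), while the log2 change stayed between -1.47 and -1.15. Without replicate 1 of both groups Socs7 was 3.19-fold lower (log2 change -1.54, limma adjusted p = 0.00608). The share of all features called moved as well, to 11.7% and 5.8% without f/f library 1 or d/d library 1, and to 2.02%, 3.39%, 4.19% and 4.43% without f/f library 2, f/f library 3, d/d library 2 and d/d library 3. It was 10.6% without replicate 1 of both groups, 10.5% with protein-coding nuclear scaling, 11.1% with the other pseudocount, 11.8% with quantile normalization and 4.19% without a filter, in all of which Socs7 was called. With the replicate number as a term the share was 1.79%, and there too Socs7 missed the threshold (limma adjusted p = 0.0644), which made 9 of 14 alternatives with the call. Socs7 (ENSMUSG00000038485) lies on chromosome 11, 97362551 to 97398542 on the plus strand of GRCm38, and no other annotated gene overlaps it.

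**Figure D2:**
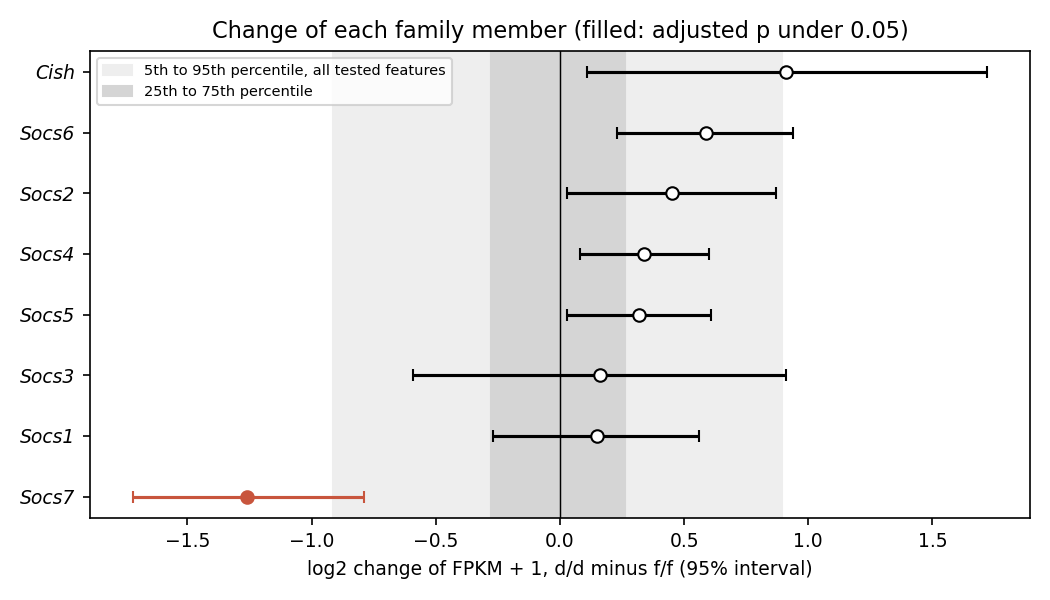
Log2 change of FPKM + 1 (d/d minus f/f, horizontal axis) with its 95% interval for each member, over grey bands for the middle 50% and 90% of all tested features. Socs7 at -1.26 lies outside both bands and is called, and Cish at 0.91 lies just past the edge of the wider band (0.89) with an interval from 0.11 to 1.72.

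The order of the levels changed mainly through Socs7 and Cish. By mean FPKM the order in f/f was Socs2, Socs5, Socs7, Socs6, Socs4, Socs3, Cish and Socs1. In d/d it was Socs2, Socs5, Socs6, Cish, Socs4, Socs3, Socs7 and Socs1. In f/f the ranges of neighbours overlapped for Socs5 and Socs7, for Socs7 and Socs6, and along the chain from Socs4 through Socs3 and Cish to Socs1. In d/d they overlapped along the chain from Cish through Socs4 and Socs3 to Socs7, and Socs2, Socs5, Socs6 and Socs1 each stood apart from their neighbours. The summed FPKM of the 8 members was 102, 136 and 137 in f/f libraries 1 to 3 and 140, 162 and 153 in d/d libraries 1 to 3. Socs7 made up 13.6%, 16.1% and 16.1% of that sum across f/f and 5.84%, 4.15% and 4.60% across d/d. Socs2 made up between 30.7% and 38.6% in all libraries.

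**Figure D3:**
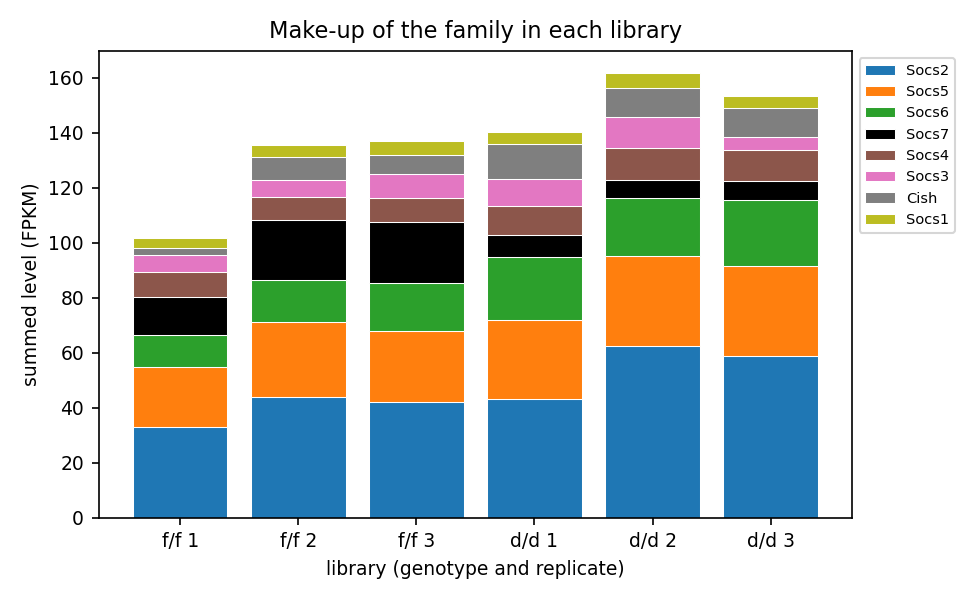
Summed FPKM of the family (vertical axis, from 0) in each library, split by member. The black Socs7 segment shrinks from 13.6% to 16.1% of the sum in f/f to 4.15% to 5.84% in d/d, while the total goes from 102 to 137 in f/f to 140 to 162 in d/d.

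The libraries of a group differed in the family as well. In f/f, replicate 1 was the lowest library for 6 of the 8 members (Socs1, Socs2, Socs5, Socs6, Socs7 and Cish), as it was for 40.2% of all features. That library also had the lowest smooth muscle and highest multiciliated marker sums given above, whose part in these values was not tested. By the root mean square difference of mean-centred log2(FPKM + 1) over the 6 libraries, the coding genes with the pattern most like that of Socs7 were D430019H16Rik (0.0427), P4ha2 (0.0685) and Synpo2 (0.0879). Those nearest to Cish were Mmp17 (0.113), Fbxl22 (0.144) and Chst12 (0.162), and those nearest to Socs6 were Rnf149 (0.0199), A430005L14Rik (0.0293) and Lime1 (0.0429). All 6 genes nearest to Socs7 and Cish were, like them, lowest among f/f libraries in replicate 1. These genes were picked for likeness over the same libraries, so this agreement follows from the choice and is no separate result. For Socs3 the nearest was Gbgt1 (0.0474), picked in the same way, and so likewise lowest in d/d library 3 (5.12 FPKM).

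The nearest genes of the other members differed from them by 0.0237 (Urb2 to Socs4), 0.0432 (Trim13 to Socs5), 0.0471 (Elac1 to Socs1) and 0.0571 (Zc3h18 to Socs2).

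Blood cells also express these suppressors, and their markers differed between the groups to varying degrees. The 7 T cell markers summed to 7.59 to 10.5 FPKM in f/f and 12.2 to 23.8 in d/d. Of the 4 that could be tested 0 were called by limma, where 11.0% of all features were called. At an unadjusted limma p under 0.05 there was 1, where 29.6% of all features passed. Cd3e, a chain of the T cell receptor complex, averaged 1.35 ± 0.341 and 3.37 ± 1.31 FPKM (f/f then d/d, limma adjusted p = 0.0785; SD, n = 3 each). The B cell markers summed to 1.92 to 3.07 FPKM in f/f and 5.13 to 8.68 in d/d, with Ms4a1 listed at 0 in at least 1 library and Cd79b called higher. Markers of natural killer and innate lymphoid cells summed to 4.10 to 6.66 and 3.99 to 7.27 FPKM. Of the 10 macrophage markers 9 were called higher and 0 lower, where 6.04% of all features were called higher and 4.97% lower. The 10 summed to 376.5 to 490 FPKM in f/f and 1063 to 1415 in d/d. The tenth, Cd163, averaged 2.74 ± 0.749 and 1.46 ± 0.218 FPKM (f/f then d/d, SD, n = 3 each), lower in d/d without overlap and not called (limma adjusted p = 0.127). The sums of the 6 neutrophil markers overlapped widely, at 6.26 to 99.1 and 27.1 to 93.2 FPKM. Of the 5 tested 0 were called by limma, where 11.0% of all features were called. The log2 change was positive in 4 of these 5 and in 48.8% of all features. Mmp8 was lower in d/d without overlap, at 8.95 ± 4.70 and 2.50 ± 0.941 FPKM (f/f then d/d, SD, n = 3 each), and was not called (limma adjusted p = 0.0798). Markers of the tissue itself were called as well. Of 4 epithelial markers 2 were higher and 1 lower, and of 4 smooth muscle and 3 fibroblast markers 1 each was lower. Of 2 secretory, 6 multiciliated and 3 endothelial markers 0 were called. The part of any of these cells in the SOCS values was not tested.

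Upstream of the family, few cytokines that use JAK kinases were measurable. Of 31 listed ligands, 7 had a mean of at least 1 FPKM, and of these 1 rose and 2 fell, where 6.04% of all features rose and 4.97% fell. Csf3, the granulocyte growth factor, read 12.8, 22.9 and 20.5 FPKM across f/f and 4.54, 5.32 and 6.69 across d/d, with no overlap (log2 change -1.57, SE 0.24, limma adjusted p = 0.0131; 0.0560 without f/f library 2 and 0.0514 without f/f library 3). Ctf1, cardiotrophin, which signals through gp130, read 22.7, 23.1 and 20.0 FPKM across f/f and 11.5, 11.4 and 10.3 across d/d with tight groups (1.98-fold lower, log2 change -0.93, SE 0.11, limma adjusted p = 0.00839). Cntf, ciliary neurotrophic factor, another ligand of gp130 receptors, read 2.10, 1.04 and 1.23 FPKM across f/f and 5.60, 4.66 and 5.47 across d/d (3.60-fold higher, log2 change 1.37, limma adjusted p = 0.0137; above 0.05 without f/f library 2, f/f library 3 or d/d library 3, with 0.0560 the highest). Cntf shares its locus with Zfp91, on the same strand and at 31.2 to 33.6 FPKM, so reads may have been split between them. With 3 ligands called among 7, leaving out f/f library 2, or f/f library 3, brought the count to 1, while the share of all features called went from 11.0% to 2.02% and 3.39%.

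Il6, the classic inducer of Socs3, was below the filter and was named after its values were seen. Its values were 0.644, 2.24 and 2.18 FPKM across f/f and 0.302 in d/d library 2, and the tables list it at 0 for the other d/d libraries. Il7, a lymphocyte growth factor whose signalling Socs genes restrain, averaged 1.14 ± 0.225 and 1.04 ± 0.241 FPKM (f/f then d/d, limma adjusted p = 0.863; SD, n = 3 each). Its receptor chain Il7r was at 0.706 ± 0.0510 and 1.59 ± 0.724 FPKM (limma adjusted p = 0.235; SD, n = 3 each).

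Receptor chains were higher more often than lower. Of 38 listed chains 30 were tested, 7 rose and 0 fell, where 6.04% of all features rose and 4.97% fell. The median log2 change was 0.38, beside -0.0105 over all features. Il6st, which encodes gp130 and is a docking site of Socs3, read 103, 86.5 and 91.8 FPKM across f/f and 175, 162 and 121 across d/d. It was 1.63-fold higher with no overlap (log2 change 0.68, SE 0.16, limma adjusted p = 0.0415), and it missed the threshold without f/f library 2 (0.139), f/f library 3 (0.115), d/d library 1 (0.103) or d/d library 2 (0.114). Both interferon receptor chains that were called had tight groups.

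Ifngr1, a chain of the interferon gamma receptor that Socs1 restrains, read 34.9, 33.7 and 30.7 FPKM across f/f and 59.7, 59.1 and 53.2 across d/d (1.73-fold, log2 change 0.77, SE 0.10, limma adjusted p = 0.00968). Ifnar1, a chain of the type I interferon receptor, read 24.0, 24.4 and 22.4 FPKM across f/f and 39.4, 39.2 and 38.7 across d/d (1.66-fold, log2 change 0.71, SE 0.09, limma adjusted p = 0.00889). The other 4 that rose are chains found mainly on blood cells or on several tissues: Csf3r (3.79-fold, from 1.47 ± 0.558 to 5.56 ± 2.62 FPKM, SD, n = 3 each), Il21r (2.76-fold), Csf2rb (2.18-fold) and Il13ra1 (1.91-fold). Their limma adjusted p-values were 0.0459, 0.0283, 0.0429 and 0.0487 in that order. The macrophage markers summed to 376.5 to 490 FPKM in f/f and 1063 to 1415 in d/d beside these chains, and the part of the markers was not tested. The number of chains called was 7 without f/f library 1, 2 without f/f library 2, f/f library 3 or d/d library 2, 3 without d/d library 1, 6 without d/d library 3, and 4 without replicate 1 of both groups. With single libraries left out, Ifngr1 and Ifnar1 kept their calls in every fit. Csf3r kept its call only without f/f library 1 or d/d library 1. Il21r and Il13ra1 kept theirs only without f/f library 1, and Csf2rb only without d/d library 3. The share of all features called in those fits, given with Socs7, moved between 2.02% and 11.7%. Ghr, the growth hormone receptor that Socs2 restrains, was at 21.6 ± 0.470 and 26.1 ± 2.10 FPKM (limma adjusted p = 0.144; SD, n = 3 each). Prlr, the prolactin receptor, a STAT5 receptor that Cish restrains, read 2.76, 2.28 and 1.66 FPKM across f/f and 0.595, 1.41 and 0.343 across d/d, without overlap and not called (limma adjusted p = 0.0975).

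None of the kinases or STATs passed. Of 11 listed JAK and STAT genes 10 were tested and 0 were called by limma in either direction, where 11.0% of all features were called. In a list this short, 0 called is not far from that share. The median log2 change was -0.04. At an unadjusted limma p under 0.05 there were 1 higher and 1 lower, where 29.6% of all features passed in either direction. The higher one was Jak3, the JAK of lymphoid and myeloid cells, which read 4.66, 5.98 and 5.63 FPKM across f/f and 11.2, 9.12 and 7.54 across d/d (limma adjusted p = 0.0538). The lower one was Stat5b, at 19.3 ± 1.16 and 15.3 ± 0.812 FPKM (limma adjusted p = 0.0905; SD, n = 3 each). Stat5a was at 13.1 ± 1.64 and 13.5 ± 1.65 FPKM (SD, n = 3 each), with a 95% interval of its log2 change from -0.30 to 0.37. Stat3 was at 57.5 ± 5.48 and 52.7 ± 7.16 FPKM (SD, n = 3 each; 95% interval from -0.44 to 0.19). Jak1, a kinase shared by many cytokine receptors, was at 63.0 ± 6.67 and 57.4 ± 2.24 FPKM (limma adjusted p = 0.475; SD, n = 3 each).

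Other genes that STATs are known to switch on moved in both directions. Of 18 tested, 3 rose and 1 fell, where 6.04% of all features rose and 4.97% fell, and the median log2 change was 0.32. Lrg1, a secreted glycoprotein of the acute phase, read 11.0, 10.1 and 14.2 FPKM across f/f and 37.5, 27.7 and 22.5 across d/d (2.49-fold, log2 change 1.23, SE 0.21, limma adjusted p = 0.0173). Bcl3, a nuclear partner of NF-kappa B, rose 1.87-fold and Cebpb, a transcription factor gene of inflammation, 1.55-fold (limma adjusted p = 0.0394 and 0.0345). Cebpb overlaps Tmem189 on the other strand (19.1 to 26.7 FPKM), so their reads may be mixed. Pim3, a survival kinase gene, fell 1.70-fold, from 41.5 ± 3.68 to 24.4 ± 3.97 FPKM (limma adjusted p = 0.0237; SD, n = 3 each). The number called was 4 without f/f library 1 or without replicate 1 of both groups, 2 without d/d library 1 or d/d library 3, 1 without f/f library 3 and 0 without f/f library 2 or d/d library 2. Of all features, 2.02% were called without f/f library 2 and 4.19% without d/d library 2.

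The machinery that SOCS boxes recruit showed no called change. Of 6 ligase subunits 0 were called by limma, and 0 had an unadjusted p under 0.05. The shares of all features were 11.0% and 29.6%. With so few genes, 0 called is not far from the first share. By the mean over all 6 libraries the elongins Elob and Eloc were the most abundant, at 130.0 ± 24.4 and 147 ± 21.3 FPKM and at 63.6 ± 9.46 and 66.8 ± 12.4 FPKM (SD, n = 3 each). The direction of Elob turned without replicate 1 of both groups (log2 change -0.06), and that of Eloc in 4 of the fits that left libraries out. Cul5, the cullin that works with SOCS boxes, was at 14.0 ± 0.164 and 12.1 ± 0.177 FPKM (SD, n = 3 each), lower in d/d without overlap and not called (limma adjusted p = 0.213). Cul2, a cullin of related ligases, was at 13.8 ± 0.513 and 15.3 ± 0.312 FPKM (SD, n = 3 each), higher without overlap and not called (limma adjusted p = 0.369).

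Other genes whose products carry a SOCS box moved in both directions. Of 24 listed genes 16 were tested, 2 rose and 1 fell, where 6.04% of all features rose and 4.97% fell, and the median log2 change was 0.07. Asb8, an ankyrin repeat protein with a SOCS box, read 18.2, 19.4 and 22.0 FPKM across f/f and 45.1 to 50.3 across d/d. The groups were far apart and each was tight (2.44-fold, log2 change 1.25, SE 0.11, limma adjusted p = 0.00374). Spsb4, whose product targets inducible nitric oxide synthase, was 1.96-fold higher (limma adjusted p = 0.0498) and Asb4, an ankyrin repeat relative, 2.32-fold lower (limma adjusted p = 0.0331). Spsb4 kept its call without f/f library 1 and lost it without any other single library, and Asb4 lost it without any of the 6. The number called was therefore 2 without f/f library 1 and 1, Asb8, without any other single library or without replicate 1 of both groups, in fits that called 2.02% to 11.7% of all features.

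No other inhibitor of the pathway passed. The 12 tested include the PIAS proteins that hold STATs and the phosphatases that reset receptors. Of them 0 were called by limma, where 11.0% of all features were called, and in so short a list this is not far from that share. The median log2 change was -0.05. At an unadjusted limma p under 0.05 there was 1, higher in d/d, where 29.6% of all features passed in either direction. The most abundant, Ptpn11 and Pias3, were at 35.9 ± 2.11 and 30.7 ± 4.90 FPKM and at 22.7 ± 2.74 and 21.6 ± 1.38 FPKM (SD, n = 3 each). Ptpn6, the phosphatase SHP-1 of blood cells, was the higher one, at 14.2 ± 1.62 and 20.2 ± 3.88 FPKM (limma adjusted p = 0.125; SD, n = 3 each).

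**Figure D4:**
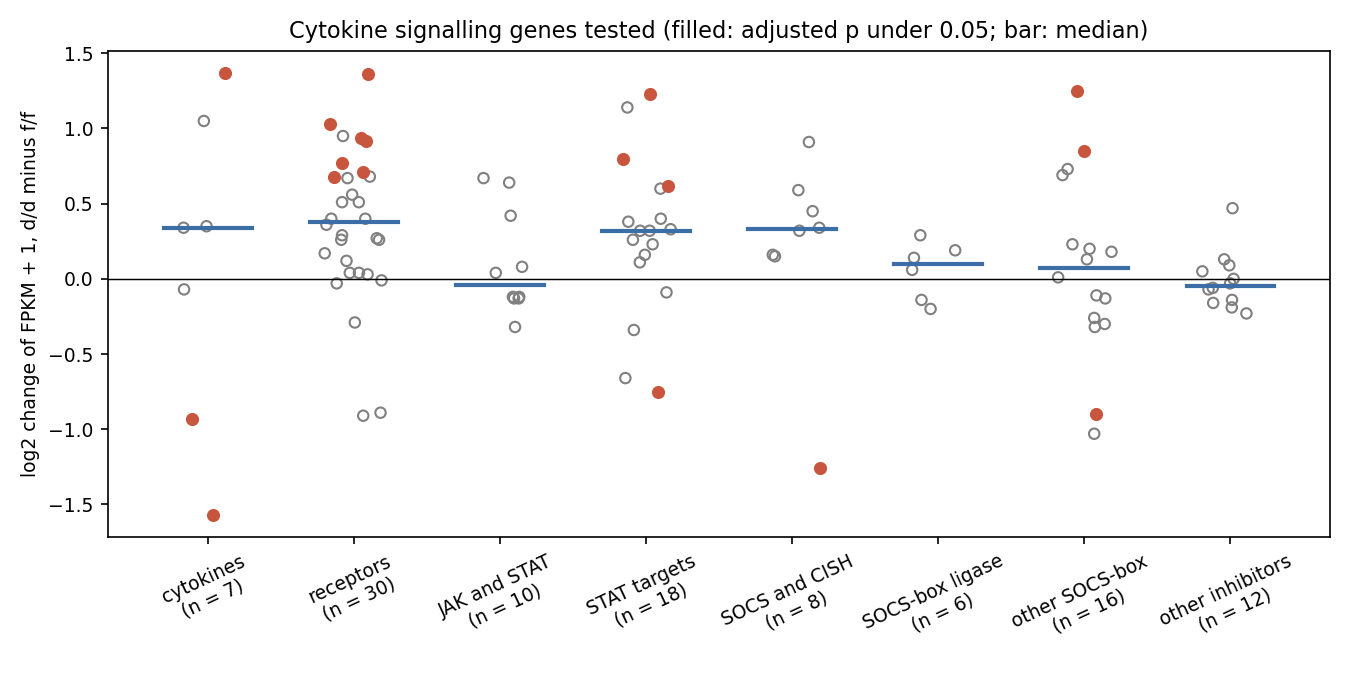
Log2 change of FPKM + 1 (d/d minus f/f, vertical axis) of every tested gene of the 8 lists, with called genes filled and the median of each list as a bar. Receptor chains have 7 filled points, all above 0, the family has 1, Socs7 at -1.26, and the JAK and STAT, ligase and other inhibitor lists have none. Of all features 11.0% were called.

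**Figure D5:**
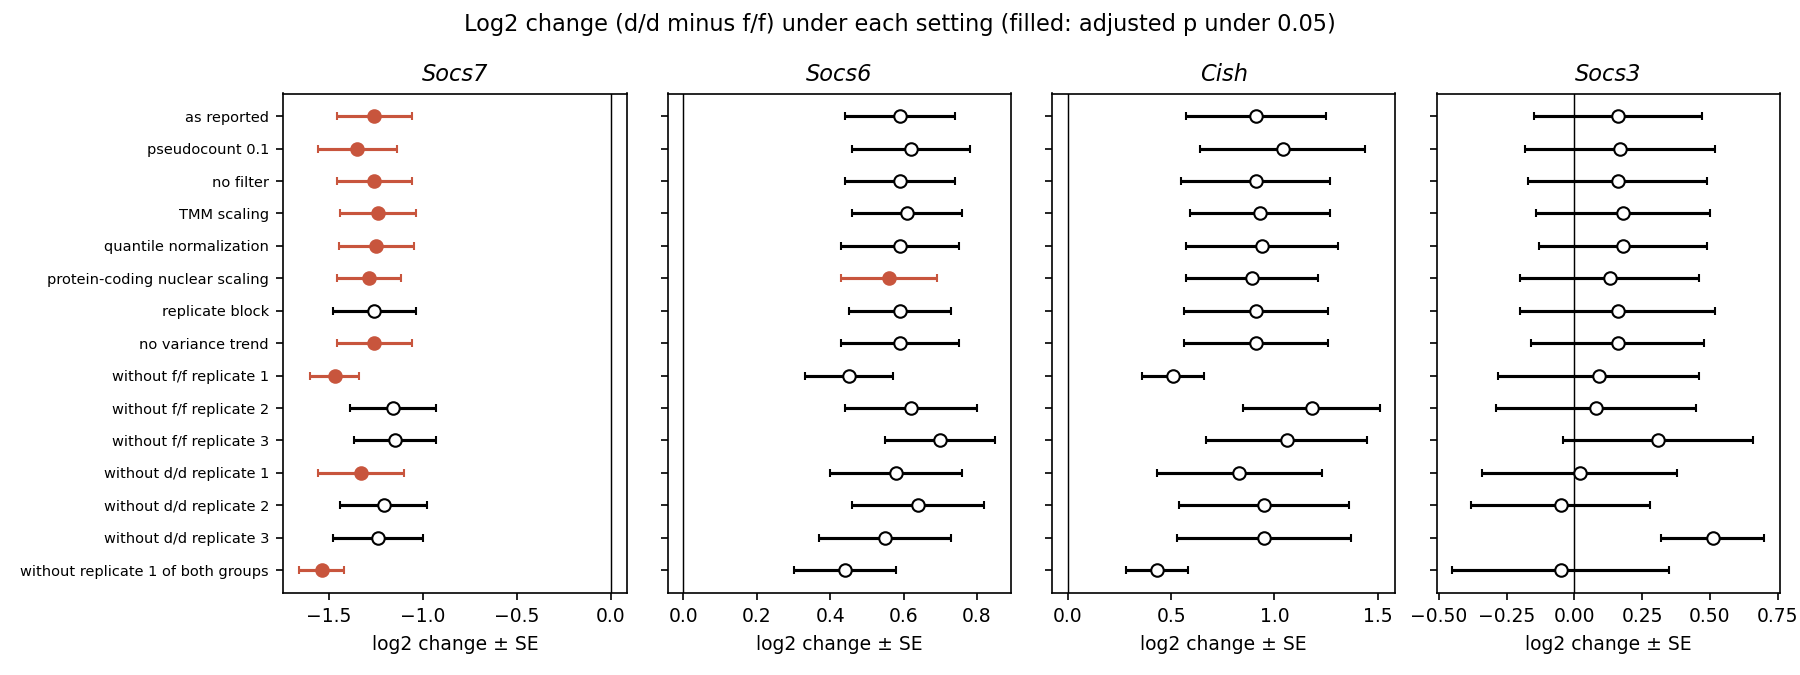
Log2 change ± SE (d/d minus f/f, horizontal axis) of Socs7, Socs6, Cish and Socs3 as reported and under the 14 other settings, filled where limma's adjusted p was under 0.05. Socs7 stays between -1.54 and -1.15 and is filled in 9 of 14, Socs6 in 1, Cish and Socs3 in none, and Socs3 crosses 0.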

How the data were processed

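Per the labels' protocols, TRIzol RNA of whole oviducts entered TruSeq library preparation. The authors deposited 1 table per library; its values were read as FPKM since the submitters' processing notes name HISAT2 2.2.1 and Cufflinks 2.2.1, and since values are decimals with differing totals. Builds mm9 and mm10 are named there with no role; the sources used here do not give annotation, strand setting or filters. Reads of overlapping genes can therefore be mixed.

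For 114 symbols held by several rows, FPKM were added up. After a minimum mean of 1 FPKM, log2(FPKM + 1) entered limma 3.58.1 under R 4.3.3 (variance trend, genotype only, two-sided), and the fit was tested on simulated data. Coordinates and transcripts are GENCODE M21 (GRCm38), promoters RefSeq. Depth was inferred from single-transcript genes over 1500 nt with FPKM under 0.1, as the step of FPKM times length less 255 nt. No 2 libraries were identical.

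Members and lists were chosen with earlier results of these data known. Genes named were the 8 members, Mettl3, up to 5 called genes per list or else the 2 most abundant, and the 3 nearest in pattern. Some items that the rule names are not reported here. Il6st, Ifnar1, Jak3, Stat3, Stat5a, Stat5b, Ghr, Prlr, Ptpn6, Cul2, Cul5, Il6, Il7, Il7r, Cd3e and the marker genes were named outside that rule after their values were seen. Alternatives were a pseudocount of 0.1, no filter, 3 scalings, no variance trend, a replicate block and leaving out libraries.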

Additional observations from a re-analysis of the deposited data

How the results depend on the processing

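Pseudocount 0.1, trimmed mean of M values (TMM) scaling, quantile normalization and no variance trend left the counts of all features, of the family and of each list within 1.5 times. The number of features called was 1701, 1107 with no filter and from 312 to 1798 with single libraries left out. The family count was 1, became 2 with protein-coding nuclear scaling (Socs6 added) and ran from 0 to 1 with single libraries left out. Receptor chains called were 7, then 2 with no filter, 3 with protein-coding nuclear scaling, 4 without replicate 1 of both groups and 2 to 7 with single libraries left out. STAT targets were 4, then 2 with no filter, 2 with protein-coding nuclear scaling and 0 to 4. Cytokines were 3 and ran from 1 to 3. Other SOCS-box genes were 3, then 1 with no filter, 1 without replicate 1 of both groups and 1 to 2. The no-filter fit tests 26441 features and fits without a library have fewer residual degrees of freedom.

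The labels do not say whether same-numbered libraries are paired. Deviations of same-numbered libraries from their group means correlated at -0.220, -0.058 and 0.003. With 3 libraries per group such deviations are tied to one another, so these values cannot show whether the libraries were paired. With the number as a replicate block, 276 features, 0 family members, 1 receptor chain, 2 cytokines, 1 other SOCS-box gene and 0 STAT targets were called, and Socs7 had an adjusted p of 0.0644. No f/f library correlated best with its own number, which for the reason given above cannot show whether the libraries were paired.

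Direction turned, with no call on either side. With single libraries left out, log2 changes ran from -0.05 to 0.51 for Socs3, -0.16 to 0.01 for Pias3, -0.07 to 0.22 for Eloc, -0.04 to 0.13 for Stat5a and -0.16 to 0.01 for Il7. The sign differed for Socs3 without d/d library 2, for Pias3 without f/f library 2, for Eloc without f/f library 1 (-0.07), d/d library 1 (-0.03) or d/d library 3 (-0.01), for Stat5a without d/d library 2 (-0.03) or f/f library 1, and for Il7 without d/d library 3 or f/f library 1. Without replicate 1 of both groups it differed for Socs3 (-0.05), Elob (-0.06) and Eloc (-0.15). The causes were not tested.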
